A study of Mus musculus and Homo sapiens with 22 samples.

Results

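The genes described here encode 4 light chains of myosin (Myl6, Myl9, Myl12a and Myl12b), 4 tropomyosins (Tpm1, Tpm2, Tpm3 and Tpm4) and 2 calponins (Cnn2 and Cnn3). They are 10 of the 22667 mouse genes in the files from N2A cells, a mouse neuroblastoma line. The set was chosen by measured values, since Myl12b, Myl9, Tpm3 and Cnn2 were called lower by edgeR after knockdown of U2af65, and the other members are their paralogs or partners. The differences of the members after U2af65 knockdown are therefore descriptions and are given without a test. By the same fit, Myl9 stood just inside the threshold of 0.05 on the adjusted p and Myl6 just outside it. This describes how narrowly the set was chosen and is not a test of either gene. The files give them as Myl6 (ENSMUSG00000090841, chromosome 10), Myl9 (ENSMUSG00000067818, chromosome 2), Myl12a (ENSMUSG00000024048) and Myl12b (ENSMUSG00000034868), both on chromosome 17, Tpm1 (ENSMUSG00000032366, chromosome 9), Tpm2 (ENSMUSG00000028464, chromosome 4), Tpm3 (ENSMUSG00000027940, chromosome 3), Tpm4 (ENSMUSG00000031799, chromosome 8), Cnn2 (ENSMUSG00000004665, chromosome 10) and Cnn3 (ENSMUSG00000053931, chromosome 3), with chromosomes from RefSeq. All 10 members passed the filter of a mean of at least 1 RPKM (reads per kilobase of gene, scaled to the reads of the library).

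The files held polyA RNA-seq values of N2A cells in which splicing regulators had been depleted. Cells were harvested 48 hours after transfection with an siRNA pool against U2af65 (1 library, siU2af65), against Ptbp1 (1 library, siPtbp1) or with a non-targeting control pool (2 libraries, a and b). Other N2A cells carried a stable lentiviral hairpin against the 3′ untranslated region of nSR100 (shnSR100) or against GFP (shGFP), were kept in 2 ug/mL puromycin as selected populations, and had 1 file each that combined 2 runs of different read length. U2af65 is the product of U2af2 and recognizes the pyrimidine-rich stretch before a 3′ splice site. Ptbp1 binds pyrimidine-rich RNA and represses neuronal exons. nSR100, encoded by Srrm4, promotes them. Reads were summed over each gene, which gives gene levels but no exon use.

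Reads in genes ranged from 60220620 to 77138004 per file. U2af2 was at 18.4 RPKM in siU2af65, against 90.3 to 113 RPKM in the other 5 files. Ptbp1 was at 8.53 RPKM in siPtbp1, against 124 to 158 RPKM elsewhere. Srrm4 was at 2.5 RPKM in shnSR100 and 11.6 RPKM in shGFP, and it ranged from 4.51 to 12.03 RPKM among the siRNA libraries. Of 13 neuroblast markers, 12 reached 1 RPKM in all 6 files. The exception was Dbh, the noradrenaline-synthesizing enzyme, at 0.54 RPKM in shnSR100 and 1.26 RPKM in shGFP.

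Myosin II is a motor of paired heavy chains, each carrying an essential and a regulatory light chain. Myl6 encodes the essential light chain of nonmuscle and smooth muscle myosin. Myl9, Myl12a and Myl12b encode regulatory light chains, whose phosphorylation by myosin light chain kinase switches the motor on. Tropomyosins are coiled coils that lie along actin filaments and control which other proteins reach them. Calponins bind actin and are thought to steady its filaments. Many genes of this system are activated by serum response factor, which binds a DNA element called the CArG box.

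A CArG box was present in the RefSeq promoter window (GRCm38.p6, 250 bases before to 50 after the gene start) of Myl9, Cnn2 and Myl6. All 3 sites are shown. Myl9 and Cnn2 were at a log2 difference of -1 or lower from the controls in both siRNA knockdowns, Myl6 in siU2af65 but not in siPtbp1. No box was found in the windows of the other 7 members. Of those 7, Myl12b, Tpm3 and Tpm4 were also at -1 or lower in siU2af65, and the rest were not. Against control b alone, Myl6 (-0.79) and Tpm4 (-0.67) did not reach -1 in siU2af65. The members were chosen with that contrast, so nothing is read from setting it beside the boxes. Each site is given 5′ to 3′ on the strand of its gene, with the CArG box in capitals.
Myl9 (chr2:156775293-156775322, plus strand): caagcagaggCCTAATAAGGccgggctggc
Cnn2 (chr10:79988534-79988563, plus strand): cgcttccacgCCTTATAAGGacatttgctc
Myl6 (chr10:128493040-128493069, minus strand): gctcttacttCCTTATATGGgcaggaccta

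The boxes start 161, 56 and 50 bases before the gene start of Myl9, Cnn2 and Myl6 in that order. Of the 12 member windows 3 held a CArG box, and of all 32851 windows of the same length 1.63% did, both strands searched. The element GGAATG, searched on both strands, was in windows of Myl12a and Tpm1, and in 14.7% of all windows. TATAAA was in none of the 12 windows and in 13.6% of all windows. A match describes the letters in these windows only, and says nothing on whether a factor binds there.

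Levels per length spanned a wide range. In the control siRNA libraries Myl6 was the highest member, at 598 ± 135 RPKM (SD, n = 2), and ranked 99 among all genes. Tpm4 followed at 289 ± 72.9 RPKM, then Cnn3 at 100.3 ± 5.78 RPKM and Cnn2 at 74.3 ± 24.7 RPKM. The spread of Cnn2 reached that of Cnn3 above it and met that of Myl12a below it. Myl12a (46.1 ± 3.42 RPKM), Tpm1 (44.3 ± 0.276 RPKM), Myl12b (36.9 ± 0.339 RPKM) and Tpm2 (31.9 ± 3.88 RPKM) lay close together, and Myl12a and Tpm1 did not differ beyond their spread. Tpm3 stood at 22.2 ± 1.41 RPKM. Myl9 was the lowest, at 3.40 ± 1.52 RPKM, and ranked 9570. The gene length behind the RPKM, worked out from reads and RPKM, was 266 bases for Myl6 and 374 bases for Tpm3, against 788 to 2411 bases for the other members. The levels of Myl6 and Tpm3 relative to other genes rest on these short lengths.

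**Figure D1:**
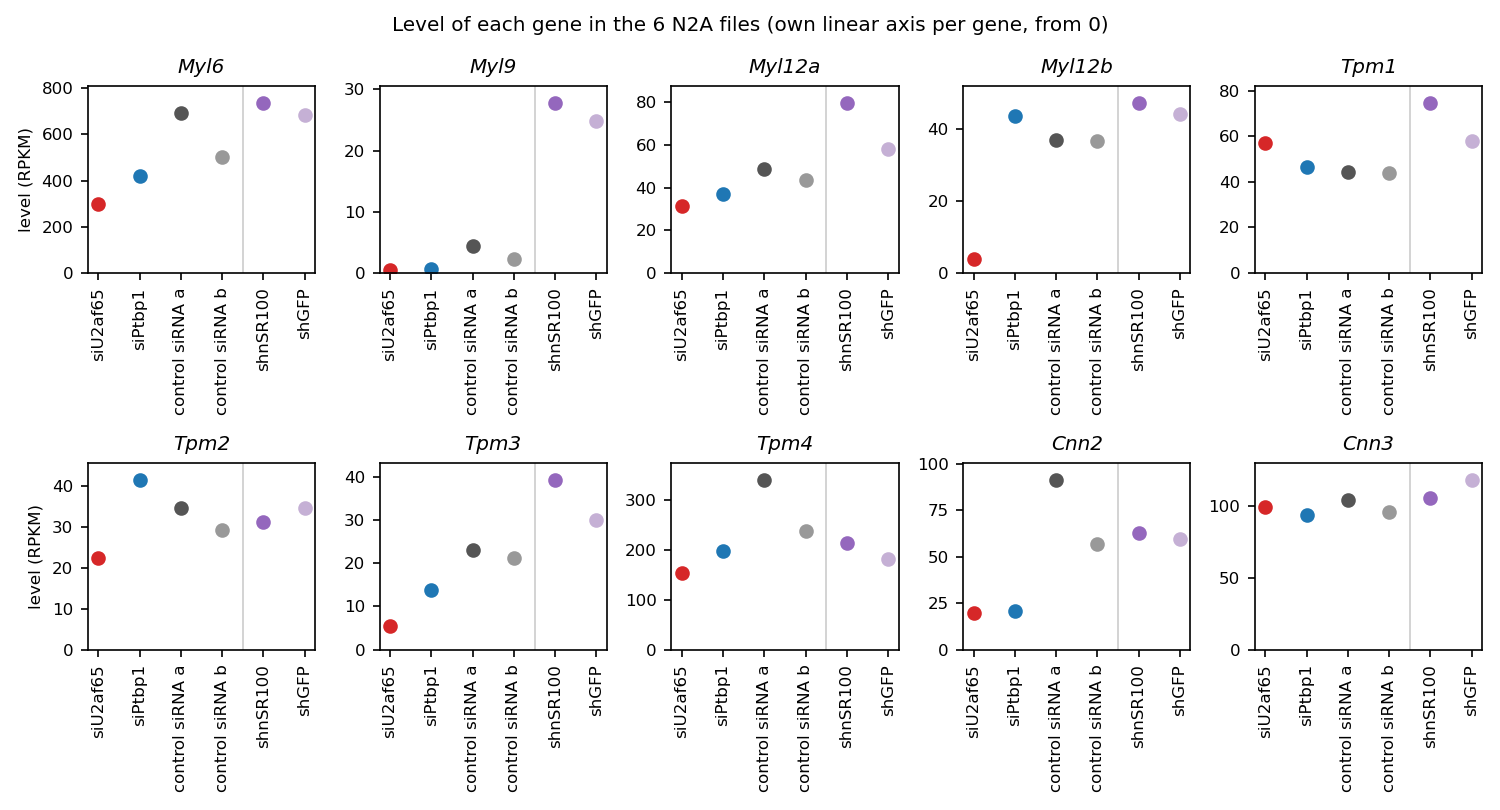
Level in RPKM (vertical axis, linear from 0, its own range per gene) of the 10 genes in the 6 N2A files, 1 point per file. Myl12b was at 3.78 RPKM in siU2af65 and at 36.7 RPKM or more in every other file, while Cnn3 stayed between 93.7 and 119 RPKM in all 6.

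Myl12b and Myl12a differed most among the close paralogs after U2af65 knockdown. Myl12b had 3.78 RPKM in siU2af65 and 43.7 RPKM in siPtbp1, against 37.2 and 36.7 RPKM in controls a and b. The siU2af65 library alone was low, on 204 reads against 1872 and 2229 in the controls. In CPM, reads relative to the TMM-scaled library total, it held 9.55% of the control mean, a log2 difference of -3.39 (SE 0.35), and the difference was -3.44 against control a and -3.30 against control b. Fewer cells that make a transcript and less of it per cell cannot be told apart in such bulk libraries. Myl12a had 31.6 RPKM in siU2af65 and 37.02 RPKM in siPtbp1, against 48.6 and 43.7 RPKM in the controls. Its log2 difference in siU2af65 was -0.65 (SE 0.23), so it too was below both controls. The ratio of Myl12b to Myl12a was 0.120 in siU2af65 and 1.18 in siPtbp1, against 0.765 and 0.839 in the controls. These genes are neighbours on chromosome 17 in RefSeq. How reads that match both were counted was not given in the sources used here, so the split between them is uncertain.

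Myl9, the regulatory light chain best known from smooth muscle, was low in both siRNA knockdowns and high in hairpin cells. It had 0.5 RPKM in siU2af65 and 0.710 RPKM in siPtbp1, against 4.47 and 2.32 RPKM in controls a and b. These values rest on 36 and 53 reads in the knockdowns and on 303 and 190 in the controls. Both knockdowns lay below both controls, which themselves differed 1.93-fold. The log2 difference in siU2af65 was -2.89 (SE 0.67), with -3.26 against control a and -2.21 against control b. In siPtbp1 it was -2.32 (SE 0.64), which missed the threshold (edgeR adjusted p = 0.821, with a range of 0.0224 to 0.879 across alternative settings), and against control b alone it was -1.66. The lowest of those came when no filter on low values was used, and that was the one setting that called Myl9. In the hairpin files Myl9 was at 27.8 RPKM in shnSR100 and 24.8 RPKM in shGFP, and shGFP stood 7.30-fold above the mean of the control siRNA libraries. The summed level of 8 smooth muscle markers was likewise higher in both hairpin files, at 1.83 RPKM in siU2af65, 1.96 in siPtbp1, 4.67 and 2.88 in the controls, 64.8 in shnSR100 and 86.5 in shGFP. Between the hairpin files the order of this sum was opposite to that of Myl9. Among the siRNA libraries the largest part of the sum was Actg2, an enteric smooth muscle actin gene, except in siPtbp1, where it was Des. Actg2 was at 0.84 RPKM in siU2af65 and 0.47 RPKM in siPtbp1, against 2.88 and 1.12 RPKM in the controls. Tagln was higher in siU2af65 (0.51 RPKM) than in either control (0.17 and 0.33 RPKM). Des was higher in siPtbp1 (1.14 RPKM) than in either control (0.46 and 1.06 RPKM). Most of the hairpin sum was Acta2, the smooth muscle actin, at 54.5 RPKM in shnSR100 and 68.3 RPKM in shGFP, against 0.070 to 1.07 RPKM in the siRNA libraries. The markers Myh11, Cnn1 and Lmod1 were at or under 0.31 RPKM in all 6 files and Myocd was listed at 0. The summed level of 8 fibroblast markers was also higher in hairpin cells, at 12.4 RPKM in shnSR100 and 7.41 RPKM in shGFP, against 0.420 to 0.840 RPKM in the siRNA libraries. It rested on Pdgfra (5.82 RPKM in shnSR100 and 2.74 RPKM in shGFP) and Dcn (5.7 and 3.99 RPKM), and the other 6 markers, the collagen genes Col1a1, Col1a2 and Col3a1 among them, were at or under 0.48 RPKM in every file. The part of either list in the Myl9 levels was not tested.

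Summed over Myl9, Myl12a and Myl12b, the regulatory light chains came to 35.9 RPKM in siU2af65 and 81.5 RPKM in siPtbp1, against 90.2 and 82.7 RPKM in the controls. The knockdown of U2af65 thus left less than either control, and siPtbp1 was close to control b. Myl12a made up 88.1% of that sum in siU2af65 and 45.5% in siPtbp1, against 53.8 and 52.9% in the controls. Myl12b made up 10.5% in siU2af65 and 53.7% in siPtbp1, against 41.2 and 44.3%.

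Myl6, the essential light chain, had 299 RPKM in siU2af65 and 422 RPKM in siPtbp1, against 693 and 502 RPKM in controls a and b. Both knockdowns were below both controls. Its log2 difference was -1.11 (SE 0.28) in siU2af65, and -0.57 (SE 0.27) in siPtbp1, which missed the threshold (edgeR adjusted p = 0.999). Control b differed from control a by -0.59 on the same scale. Against the control of its own letter, siU2af65 differed by -1.38 and siPtbp1 by -0.24. RefSeq names 1 pseudogene of Myl6, and it was among the identifiers in the files.

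**Figure D2:**
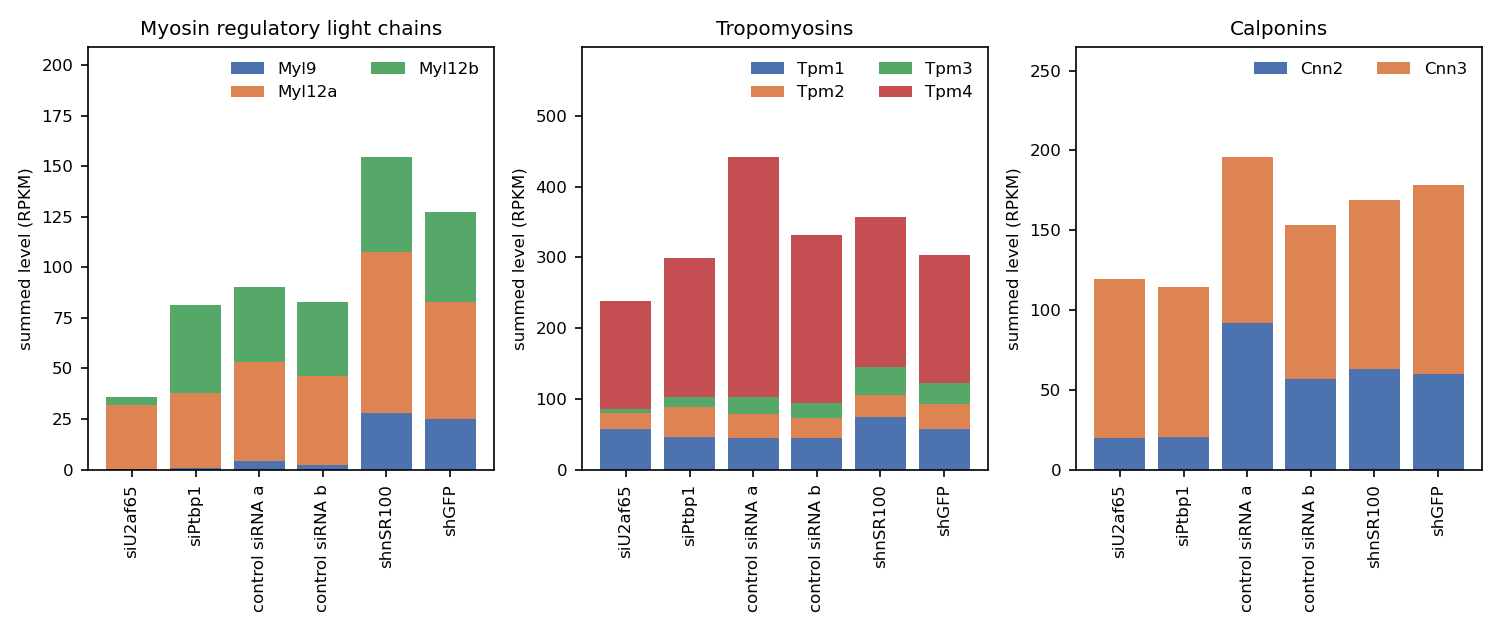
Summed level in RPKM (bars, linear from 0) of the 3 regulatory light chains, the 4 tropomyosins and the 2 calponins in each of the 6 N2A files, with each gene as a coloured segment. Myl12b made up 10.5% of the regulatory light chains in siU2af65, and the Cnn2 segment was small in both siU2af65 and siPtbp1.

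Among tropomyosins, Tpm3 lay furthest below the controls in siU2af65. Tpm3 had 5.51 RPKM in siU2af65 and 13.8 RPKM in siPtbp1, against 23.2 and 21.2 RPKM in controls a and b. These values rest on 141 and 361 reads in the knockdowns, against 555 and 612. Both knockdowns were below both controls, siU2af65 the further. The log2 difference was -2.11 (SE 0.48) in siU2af65 and -0.74 (SE 0.44) in siPtbp1, the second missing the threshold (edgeR adjusted p = 0.999). RefSeq names 3 pseudogenes of Tpm3, and 1 of them, Tpm3-rs7 on chromosome 14, was among the genes in the files. Tpm3-rs7 held more reads than Tpm3, with 458 in siU2af65 and 1091 in siPtbp1, against 1777 and 2020 in the controls. Its differences were -2.11 and -0.85, close to those of Tpm3. The reads of Tpm3-rs7 over those of Tpm3 were 3.25 in siU2af65 and 3.02 in siPtbp1, against 3.20 and 3.30 in the controls. In the hairpin files this ratio was lower, at 2.28 in shnSR100 and 2.43 in shGFP. The files do not show which reads came from the gene and which from the copy. With the reads of both added, a setting chosen after seeing the data, the differences were -2.11 in siU2af65 and -0.82 in siPtbp1.

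Tpm4, a nonmuscle tropomyosin and the main one here, had 154 RPKM in siU2af65 and 197 RPKM in siPtbp1, against 340 and 237 RPKM in the controls. Both knockdowns were below both controls, but the controls themselves differed by -0.64 (b minus a, log2). The log2 difference was -1.02 (SE 0.33) in siU2af65 and -0.62 (SE 0.33) in siPtbp1 (edgeR adjusted p = 0.999). Against the control of its own letter, siU2af65 differed by -1.31 and siPtbp1 by -0.26.

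Tpm2 and Tpm1 behaved otherwise. Tpm2 had 22.4 RPKM in siU2af65 and 41.5 RPKM in siPtbp1, against 34.6 and 29.1 RPKM in the controls, so it was below both controls in siU2af65 and above both in siPtbp1. Its log2 differences were -0.62 (SE 0.24) and 0.32 (SE 0.23, edgeR adjusted p = 0.999). Tpm1 had 57.2 RPKM in siU2af65 and 46.7 RPKM in siPtbp1, against 44.5 and 44.1 RPKM in the controls. It was the 1 member with a positive difference in siU2af65, at 0.26 (SE 0.21), and in siPtbp1 its difference was 0.02 (SE 0.21, edgeR adjusted p = 0.999). Tpm1 made up 24.0% of the tropomyosin sum in siU2af65 and 15.6% in siPtbp1, against 10.1 and 13.3% in the controls. That sum was 239 RPKM in siU2af65 and 299 RPKM in siPtbp1, against 442 and 331 RPKM in the controls.

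**Figure D3:**
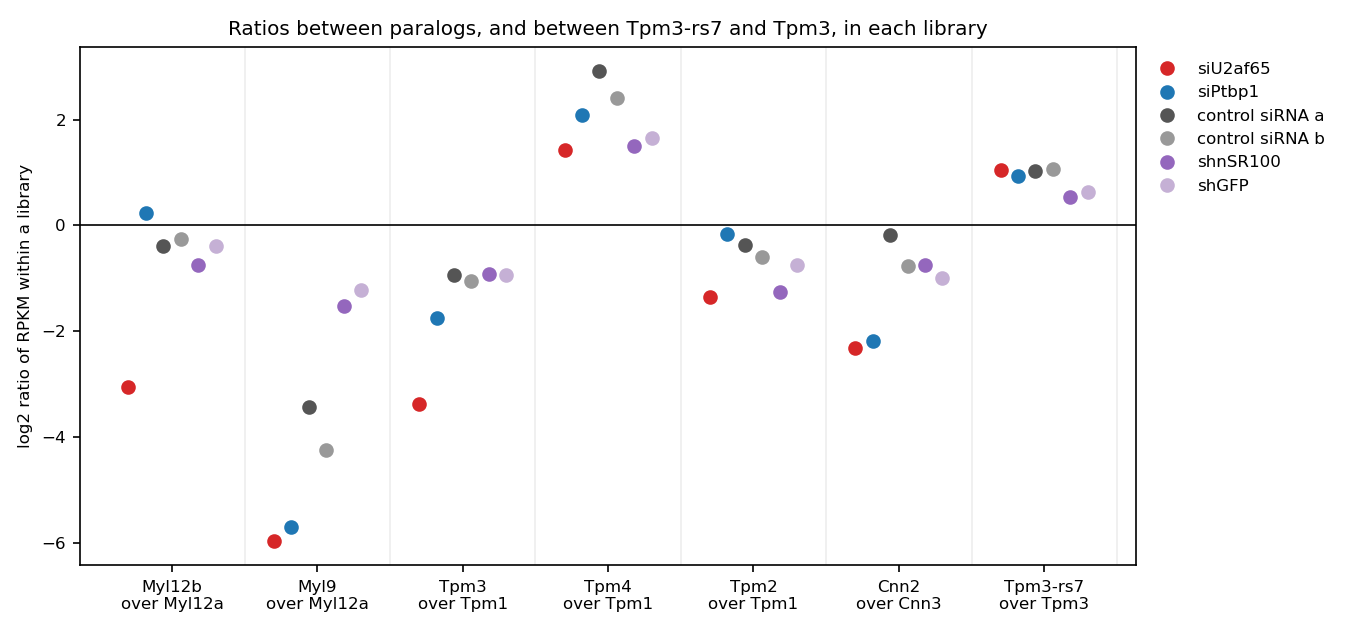
Log2 ratio of the RPKM of paralogs within each of the 6 N2A libraries, and of Tpm3-rs7 to Tpm3, 1 point per library. Myl12b over Myl12a and Tpm3 over Tpm1 were lowest in siU2af65, at -3.06 and -3.38, while Cnn2 over Cnn3 was low in siU2af65 (-2.32) and siPtbp1 (-2.19) alike.

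In both siRNA knockdowns Cnn2 lay further below the controls than Cnn3 did. Cnn2 had 19.9 RPKM in siU2af65 and 20.6 RPKM in siPtbp1, against 91.7 and 56.8 RPKM in controls a and b. Both knockdowns were far below both controls, which differed 1.61-fold from each other. The log2 difference was -2.02 (SE 0.34) in siU2af65, with -2.36 against control a and -1.55 against control b. In siPtbp1 it was -1.92 (SE 0.34), with -2.27 and -1.46 against the same controls. The siPtbp1 difference of Cnn2 missed the threshold (edgeR adjusted p = 0.336). It passed in 5 of 8 alternatives, among them DESeq2 (adjusted p = 6.99e-05) and limma on log2(RPKM + 1) (adjusted p = 7.6e-12), and the adjusted p ran up to 0.584. Cnn3, its paralog, had 99.3 RPKM in siU2af65 and 93.7 RPKM in siPtbp1, against 104 and 96.2 RPKM in the controls. The log2 differences of Cnn3 were -0.12 (SE 0.23) and -0.16 (SE 0.23, edgeR adjusted p = 0.999). Cnn2 over Cnn3 was 0.200 in siU2af65 and 0.220 in siPtbp1, against 0.879 and 0.590 in the controls. Both knockdowns share these controls.

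Over all members, 9 of 10 had negative and 1 positive differences in siU2af65, with a median of -1.07, against -0.004 over all 11237 tested genes, of which 50.3% were negative. By edgeR 4 members were called lower and 0 higher, where 3.42% of all genes were called lower and 1.82% higher. In CPM 8 members lay below both controls and 1 above both, where 39.5% and 40.5% of all genes did, and 6 members were at -1 or lower, where 5.58% of all genes were. The rule used this contrast, so nothing is read from these counts. At -1 or lower were 6 members against control a alone (6.25% of all genes) and 4 against control b alone (5.47%). The median of the members was -1.34 against control a and -0.73 against control b, since all 10 were lower in control b than in control a, with a median of -0.32 (all tested genes 0.04).

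The siPtbp1 contrast uses the same 2 controls as the contrast that chose the members, and all 10 members were lower in control b than in control a, so its counts are descriptions and nothing is read from them against the shares of all genes. In siPtbp1, 7 of 10 members had negative differences, with a median of -0.47, against 0.01 over all tested genes, of which 47.7% were negative. By edgeR 0 of the 10 were called, where 0.0267% of all genes were, and 2 members had an unadjusted p under 0.05, as had 481 of the 11237 genes. Those 2 were Cnn2 and Myl9. By DESeq2 1 member, Cnn2, was called. Below both controls in CPM were 7 members, where 28.9% of all genes were, and above both were 2, where 34.8% were. At -1 or lower were 2 members, Cnn2 and Myl9, where 1.53% of all genes were. They were also the 2 at -1 or lower against control a (2.58% of all genes). Against control b, which carries the same letter, the median of the members was -0.24, and the same 2 members lay at -1 or lower, as did 0.890% of all genes.

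Only the pair of controls informed the spread in this fit (1 residual degree of freedom), and each knockdown, a single library, was taken to be as variable as they are. Separate cultures are not stated for the controls. The p-values thus reflect how far these libraries differ, which may be technical variation.

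**Figure D4:**
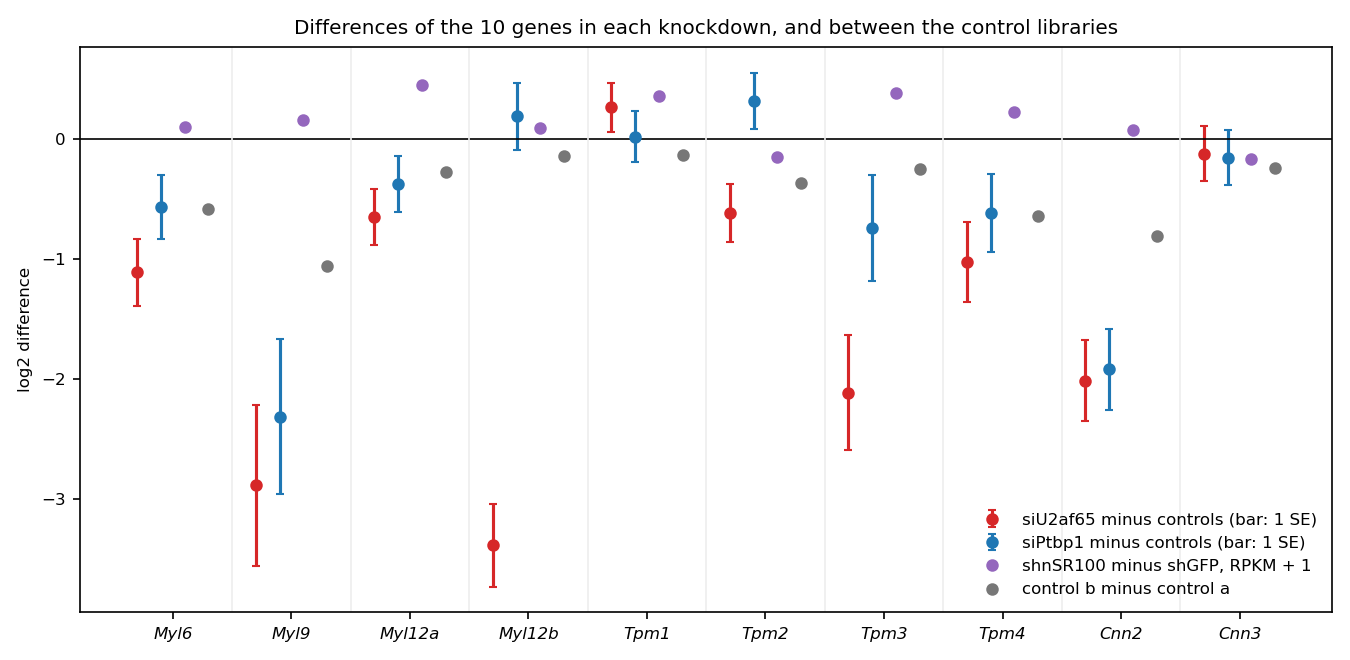
Log2 difference (vertical axis) of the 10 genes in siU2af65 and in siPtbp1 from the 2 control siRNA libraries (points with bars of 1 SE, edgeR), in shnSR100 from shGFP (log2(RPKM + 1), no replicates) and between the controls. Control b minus control a was negative for every gene, down to -1.06 for Myl9.

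In stable nSR100 knockdown cells the members differed little from shGFP cells. With 1 file per group there is no test, and the intervals are 95% exact binomial for the counting error of reads only. No member reached a difference of 1 on the log2(RPKM + 1) scale, as 0.918% of 11877 genes did. The difference was positive for 8 of the 10, with a median of 0.13, where 55.7% of all genes were positive with a median of 0.03. Myl12a had 79.7 RPKM in shnSR100 and 58.1 RPKM in shGFP, which is 137% of shGFP (132 to 142%). Tpm3 had 39.5 RPKM in shnSR100 and 30.01 RPKM in shGFP, 131% (119 to 145%), and Tpm1 had 74.7 and 57.9 RPKM, 129% (125 to 133%). Myl12b, by contrast, had 47.4 RPKM in shnSR100 and 44.4 RPKM in shGFP, 107% (101 to 113%). Cnn3 and Tpm2 were the lower members, at 89.1% (87.1 to 91.2%) and 89.8% (86.2 to 93.7%) of shGFP. Cnn2, low in both siRNA knockdowns, had 62.9 RPKM in shnSR100 and 59.7 RPKM in shGFP.

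Of the genes that act with these members, Rhoa, Smtn and Srf fell after U2af65 knockdown. The list held 59 genes: myosin heavy chains and other light chains, regulators of light chain phosphorylation, actins, other thin filament proteins, and serum response factor with its coactivators. Of these 37 were tested. After U2af65 knockdown 3 fell and 0 rose, with a median of -0.27, where 3.42% of all genes were called lower, 1.82% higher and 5.24% in either direction. Rhoa, which encodes a small GTPase, had 48.9 RPKM in siU2af65 against 132 and 117 RPKM in the controls, and on the log2 scale it fell by 1.45, with an SE of 0.26 (edgeR adjusted p = 0.0179). Smtn, which encodes the actin-binding protein smoothelin, had 2.5 RPKM against 5.92 and 7.43 RPKM and fell by 1.52 (SE 0.34, edgeR adjusted p = 0.0367). Srf, the serum response factor gene, had 5.86 RPKM against 10.9 and 11.8 RPKM and fell by 1.05 (SE 0.25, edgeR adjusted p = 0.0422). The call of Srf was lost with a mean of at least 5 RPKM and in both limma fits. By group, of 9 thin filament genes 1 fell, with 4 negative, and of 3 genes of serum response factor and its coactivators 1 fell and the other differences were positive. None of the 4 tested heavy chain and other light chain genes was called, and all 4 differences were negative.

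The motor itself was less far from the controls. The nonmuscle myosin heavy chain gene Myh9 had 95.9 RPKM in siU2af65 and 116 RPKM in siPtbp1, against 121 and 134 RPKM in the controls, and the paralog Myh10 had 35.3 and 48.4 RPKM, against 37.1 and 43.9 RPKM. Neither was called in either contrast. The heavy chain gene Myh3, which was not in the partner list, had 63.7 and 50.6 RPKM, against 50.4 and 52.8 RPKM. It was the only 1 of 8 skeletal muscle markers to reach 1 RPKM in all 6 files. The cytoplasmic actin gene Actb had 943 RPKM in siU2af65 and 698 RPKM in siPtbp1, against 1279 and 1040 RPKM in the controls. Actg1, the other cytoplasmic actin gene, had 2658 and 1677 RPKM, against 4712 and 2982 RPKM. All 3 tested actin genes had negative differences in both contrasts, and none was called. Actn1, an actin cross-linker, had 122 RPKM in siU2af65 and 105 RPKM in siPtbp1, against 190 and 125 RPKM. Tagln and the light chain kinase gene Mylk were under the filter and were not tested.

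After Ptbp1 knockdown 0 of the 37 were called by edgeR, where 0.0267% of all genes were, and the median was -0.09. DESeq2 called 1, Cald1, which encodes the actin- and tropomyosin-binding protein caldesmon. Cald1 was also called with library totals, with no filter on low values and in both limma fits. It is named after its values were seen. Cald1 had 53.6 RPKM in siU2af65 and 20.5 RPKM in siPtbp1, against 53.4 and 47.3 RPKM in the controls, so siPtbp1 alone was low. Its log2 difference in siPtbp1 was -1.36 (SE 0.25, edgeR adjusted p = 0.336). A CArG box was in 6 of the 63 promoter windows of this list, against 1.63% of all windows. Of the 6 genes that held it, Actg1 and Srf were tested, and Acta1, Actc1, Myl3 and Myl7 were under the filter.

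**Figure D5:**
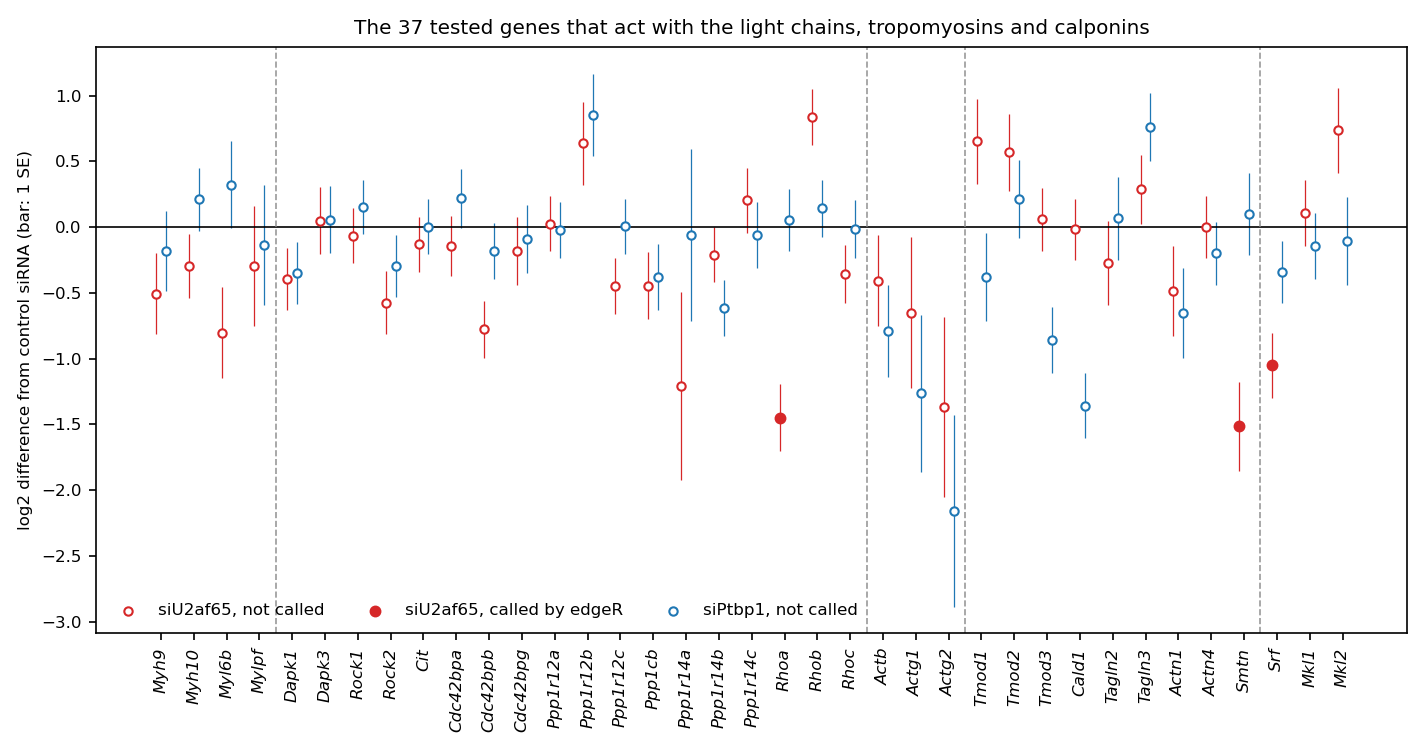
Log2 difference from the 2 control siRNA libraries (vertical axis, bars of 1 SE, edgeR) of the 37 tested genes that act with the members, in siU2af65 and siPtbp1, with dashed lines between gene groups. Filled points mark the 3 genes called by edgeR, Rhoa, Smtn and Srf, all lower in siU2af65.

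The genes closest in pattern to the 4 members were taken by Pearson's r of log2(RPKM + 1) over the 6 N2A files, which share controls and cell types, among genes whose mean reached 10 RPKM. Closest to Myl12b were Chp1 (r = 0.999), a calcium-binding protein gene, Nme1 (r = 0.994), a nucleoside diphosphate kinase gene, and Foxk2 (r = 0.994), a forkhead factor gene. Chp1 had 24.5 RPKM in siU2af65 against 41.6 to 43.8 RPKM in the other files, so its shape but not its size resembled that of Myl12b. Nme1 had 6.94 RPKM in siU2af65 against 23.6 to 29.98 RPKM. Closest to Myl9 were Gm2a (r = 0.986), Gm4631 and Lgalsl, and to Tpm3 were Plcb3 (r = 0.992), Npc2 and Uso1. Closest to Cnn2 were Arf4 (r = 0.979) and Arf1 (r = 0.978), small GTPases of membrane traffic, and Gna13 (r = 0.974), a G protein subunit gene. Arf4 had 59.5 RPKM in siU2af65 and 62.7 RPKM in siPtbp1, against 85.8 and 72.2 RPKM in controls a and b. Plcb3 had 17.8 RPKM in siU2af65 against 28.9 RPKM in each control, and Gm2a had 9.01 RPKM against 13.0 and 12.4 RPKM. Each of these genes thus resembled its member in shape but moved less. All of the likenesses are over 6 points and carry no test.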

How the data were processed

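Each deposited file lists Ensembl genes with the count of reads and the RPKM that the authors computed, and has no header. A blank count was taken as 0, and 1114 genes had no RPKM. The submitters' processing notes name Bowtie, bedtools 2.17.0, hg19 and mm9 without saying what each was used for. How reads were counted, whether strand was used and how reads with several matches were handled is not given in the sources used here, so genes with close copies are uncertain. Symbols were found for 20759 of the 22667 identifiers. RefSeq tables (GRCm38.p6) gave gene order, pseudogene names and promoter windows. The 293T and crosslinking samples were not analysed here.

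edgeR 4.0.16 (R 4.3.3), quasi-likelihood with TMM scaling, was run on counts of the 4 siRNA libraries for the 11237 genes averaging 1 RPKM or more. P-values were Benjamini-Hochberg adjusted over all of them (threshold 0.05). The SE was obtained from the log2 difference and its F statistic. Differences from 1 control are of log2 CPM. Alternatives were other scalings and filters, limma 3.58.1, DESeq2 1.42.0 and leaving out each control. On simulated data the test recovered all of the large changes but only a minority of the smallest ones, so a change can be missed. A difference that is not small can also go without a call. In siPtbp1 those of Cnn2 (-1.92, edgeR adjusted p = 0.336) and Myl9 (-2.32, edgeR adjusted p = 0.821) did. The members and lists were chosen with earlier results of these data known. Named genes were the members, targeted genes, called partners, 8 partners fixed by name and the 3 nearest in pattern to each of 4 members. Tpm3-rs7, Cald1, the single markers and the partner genes with a CArG box were named after their values were seen. The count for one gene group of the partner list is not reported here.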

Additional observations from a re-analysis of the deposited data

How the results depend on the processing

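The direction of every member fitted in siU2af65 was the same in all 8 alternative fits, though Myl9 was not in the fit with a mean of at least 5 RPKM, and the median of the members ran from -1.13 to -0.93. Leaving out 1 control gave values only, with no degree of freedom left for a test. In siPtbp1 the single reversal among the 8 alternative fits was Tpm1, at -0.0013 with a mean of at least 5 RPKM. Members called in siPtbp1 were 1 with library totals, 2 with no filter on low values, 1 with DESeq2 and 1 in each limma fit, and partner genes called were 1, 2, 1 and 1 in the same order. Partner genes called in siU2af65 were 5 with library totals, 8 with no filter and 5 with DESeq2. Genes called in siPtbp1 were 86 with library totals, 99 with no filter, 1 with a mean of at least 5 RPKM, 20 with DESeq2, 99 with limma on log2(RPKM + 1) and 106 on log2(RPKM + 0.1). The counts for siU2af65 in that order were 1158, 1649, 257, 1045, 1285 and 1261. The cause was not tested. Of the siU2af65 calls 34.8% were higher with TMM and 50.1% with library totals, 51% in limma on log2(RPKM + 1) and 48.9% on log2(RPKM + 0.1), and the median of all genes was 0.11 in limma on log2(RPKM + 0.1). In siPtbp1 the share called higher was 0% with TMM (0 of 3) and 16.3% with library totals (14 of 86), 29.3% and 28.3% in the limma fits. The element GGAATG was in 1 member window when the upstream bases alone were searched. Against single controls the sign of Cnn3 in siU2af65 changed (-0.23 and 0.0047), as did that of Tpm1 in siPtbp1 (-0.044 and 0.090). With a pseudocount of 1 the Myl9 difference in siU2af65 was -1.51. No paired analysis was possible, because each knockdown had only 1 control of its own letter, a single pair, and the hairpin runs were combined. The fit did not use the letters.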
